A study of Rattus norvegicus with 12 samples.

Results

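Non-coding RefSeq transcripts that carried enough reads to be measured were described one by one in rat fracture hematoma and femur. The members are the rows whose RefSeq name begins with NR_, the prefix of non-coding entries, with at least 10 reads in at least 3 of the 12 libraries. They were selected on the measured number of reads, so the level of a member is a description and not a finding. Of 18321 transcript rows, 673 were non-coding entries and 162 of these passed the read minimum. The ribosomal RNAs Rn45s, Rn28s, Rn5-8s and Rn18s were left out by the rule, and so was H19, which held 1.1463% of the reads of 1 library. The 157 members comprised 34 non-coding variants of coding genes, 19 microRNA (miRNA) hairpins and 51 entries that fell in no other class. These 51 include long non-coding RNAs (lncRNAs) with a locus or clone name, and entries such as RT1-T24-2 and Igh-6l1. The other members were 16 lncRNAs with an established name, 11 transcripts with no symbol in the annotation and 9 transcripts named as antisense or opposite strand. There were also 9 pseudogenes, 5 structural RNAs and 3 listed host genes of small nucleolar RNAs (snoRNAs). In all, 146 members had a symbol, and 133 different symbols occurred. At the threshold, Mir133b, Mir1249, Mir3072 and Kantr were inside with 10 reads in the third-highest library, and Strit1 with 9.5, Hotairm1 with 9 and LOC690120 with 9 were outside.

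The rats were male SAS Fischer animals weighing 200 to 225 g, with 3 libraries in each group. Hematoma was taken from a femoral defect of 0.5 mm, the model of normal healing (normal), of 1.5 mm, the model of delayed healing (delayed), or of 5.0 mm, the model of nonunion (nonunion). The reference group (preOP) is healthy femur, the piece taken out when a 5.0 mm defect was made, and had no treatment. Libraries were made from flash-frozen tissue with the Illumina TruSeq RNA kit, starting from 1 ug of Trizol-extracted total RNA. Whether the libraries of a group are of separate animals is not stated, and the p-values then cover only the spread between these samples, which may be technical. Hematoma and whole bone are mixtures, in which fewer cells of a type and less RNA per cell cannot be told apart.

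Long non-coding RNAs are transcribed and often spliced like mRNAs but are not known to be translated, and many act in the nucleus on the genes near them or by binding proteins and miRNAs. An miRNA is cut from a hairpin precursor by Drosha and Dicer, and the mature strand of the hairpin pairs with target mRNAs through its seed. Host genes of snoRNAs carry the guides of ribosomal RNA modification in their introns, and their spliced product is often degraded by nonsense-mediated decay. In healing bone, miRNAs of myeloid cells and of stressed or dividing stromal cells, and imprinted lncRNAs such as Meg3, are among the non-coding RNAs most often followed.

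Each miRNA row in the files is a hairpin precursor and does not measure the mature miRNA. The member hairpins have 67 to 120 bases and include Snora19, which carries a snoRNA symbol. The mature sequences show which miRNAs these hairpins encode, and they are given for the hairpins that the results turn on. Capitals mark the seed, bases 2 to 8, and the sequences are from RefSeq (GRCr8), while the submitters' processing notes name the build rn6.
rno-miR-21-5p: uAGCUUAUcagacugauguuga
rno-miR-142-3p: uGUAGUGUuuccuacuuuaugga
rno-miR-142-5p: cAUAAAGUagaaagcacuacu
rno-miR-223-3p: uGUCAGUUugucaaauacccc
rno-miR-22-3p: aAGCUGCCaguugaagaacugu
rno-miR-7a-5p: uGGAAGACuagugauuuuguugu
rno-miR-1896: uGGUGGGUgaggaggagg
rno-miR-3120: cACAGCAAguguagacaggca
rno-let-7d-5p: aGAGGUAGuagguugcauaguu
Mature entries were found for 18 of the 19 hairpins, and their 28 mature sequences had 28 different seeds. The lncRNA Lnc215 lies inside the annotated gene Mir100hgl and spans hairpin genes on its own strand, whose mature miRNAs are shown because Lnc215 is among the members that differed between groups.
rno-miR-100-5p: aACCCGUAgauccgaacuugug
rno-let-7a-5p: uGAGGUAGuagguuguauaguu
rno-miR-125b-1-3p: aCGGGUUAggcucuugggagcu
The seed GAGGUAG is shared by let-7a-5p inside Lnc215 and let-7d-5p of the member Mirlet7d.

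Libraries held 16808993 to 24325162 estimated reads, of which 0.244% to 0.411% fell on the members. In normal, 108 to 113 members had at least 10 reads per library, against 136 to 138 in delayed and 136 to 142 in preOP, and nonunion had 115 to 141. In nonunion 2, ribosomal RNA took up 72.168% of reads (1.74% or less in the other libraries), and 115 members reached that minimum. The median gap between the length and the effective length of a transcript, which follows fragment length, was 157.2 to 191.6 bases in normal and 194.3 to 254.6 bases in the other groups. Markers of other cells also moved with the groups. The summed level of 7 osteoblast and bone markers was 18300 to 27500 CPM in normal. In preOP it was 2280 to 2540 CPM, with 4190 to 15500 CPM in delayed and 4290 to 5250 CPM in nonunion. Red cell markers summed to 111000 to 189000 CPM in preOP and 875 to 19400 CPM in hematomas, and fibroblast markers to 832 to 2010 and 6070 to 20200 CPM. Muscle markers summed to 31100 CPM in delayed 2, against 150 to 4600 CPM in the other hematomas, and adipocyte markers to 8530 CPM in nonunion 2, against 83.9 to 510 CPM. The part of these differences in the results below was not tested. CPM, the usual depth-scaled read count of a transcript, was computed with library totals scaled by TMM.

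**Figure D1:**
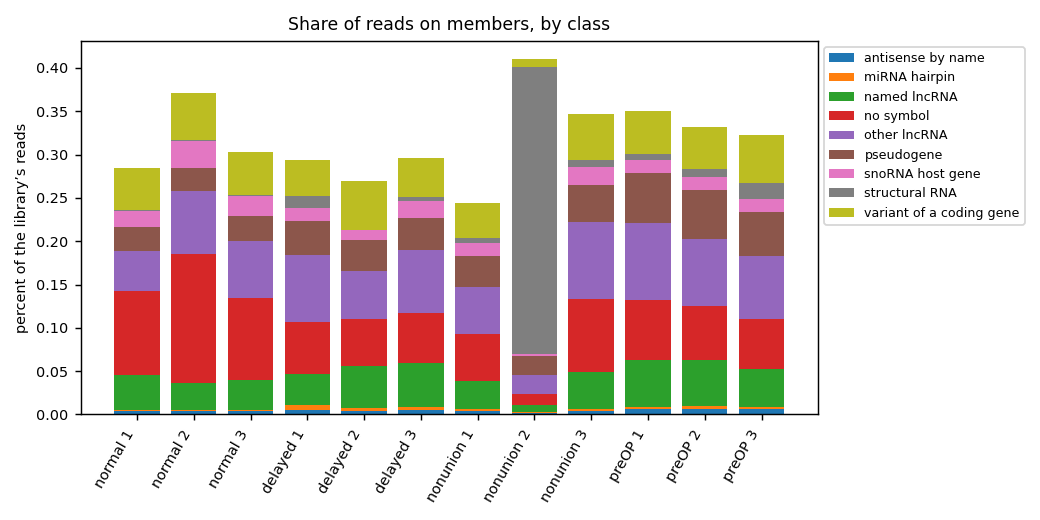
Percent of each library's reads on the members, stacked by class, for the 12 libraries on the x axis. Shares ran from 0.244% to 0.411%, and in nonunion 2 structural RNAs alone made up 0.3321%.

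Levels of different members can be compared only per base of transcript. NR_038113, of 359 bases and without a symbol, had a deposited TPM of 5880 ± 853 in normal, 4110 ± 398 in delayed, 3340 ± 2510 in nonunion and 2840 ± 516 in preOP (SD, n = 3). The nonunion means of Rn5s, at 13900 ± 21800 TPM, and Rn7sl1, at 6560 ± 10400 TPM, were higher and had SDs above their means. The snoRNA host gene Gas5, a growth arrest transcript, had 951 ± 128, 907 ± 313, 621 ± 476 and 549 ± 47.4 TPM. Tug1, a broadly expressed lncRNA, and Oip5-as1 lay between 15 and 30.9 TPM in every group mean. TPM depends on the reads of all other transcripts, and the nonunion SDs include the library dominated by ribosomal RNA. The small cytoplasmic RNA Bc1 stood at 90.4 CPM in normal 1 and at 4.79 to 26.5 CPM elsewhere.

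In the comparison of delayed with normal hematoma, 146 members could be tested with edgeR, and 18 were called at an adjusted p below 0.05, of which 13 were higher and 5 lower in delayed. Over all 13072 transcripts tested, 6.1% were called (2.24% higher and 3.86% lower), against 12.3% of the members (8.9% higher and 3.42% lower). In nonunion against normal, 8 members were called, 6 higher and 2 lower, which is 5.48% of the members beside 2.07% of all transcripts. The libraries of the 2 groups did not overlap for 59 members that were higher in delayed than in normal and 21 that were lower, beside 16.1% and 20.3% of all transcripts. Either way this is 80 members, beside 36.4% of all transcripts. For nonunion these counts were 53 and 20, beside 13.9% and 15.3%, or 73 in either direction beside 29.3%. The median log2 fold change of the members was 0.88 in delayed and 0.72 in nonunion, against 0.02 and -0.03 over all transcripts. Both comparisons share the 3 normal libraries. When 1 of the 6 libraries was left out, 1 to 12 members were called in delayed (1 without normal 3, 3 without delayed 1 or normal 1, 4 without delayed 3, 6 without normal 2 and 12 without delayed 2) and 0 to 3 in nonunion (0 without nonunion 3, normal 1 or normal 3, 1 without normal 2, 2 without nonunion 1 and 3 without nonunion 2). None of the calls held without each library in turn, and with the deposited effective lengths as offsets 17 and 7 members were called. Of these, 16 and 6 were called in the main fit as well. With these offsets Mir7-1 and LOC102554317 lost their calls in delayed, and Miat and Mtln theirs in nonunion. Losses given below for single members are those of leaving out 1 library, unless another alternative is named.

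**Figure D2:**
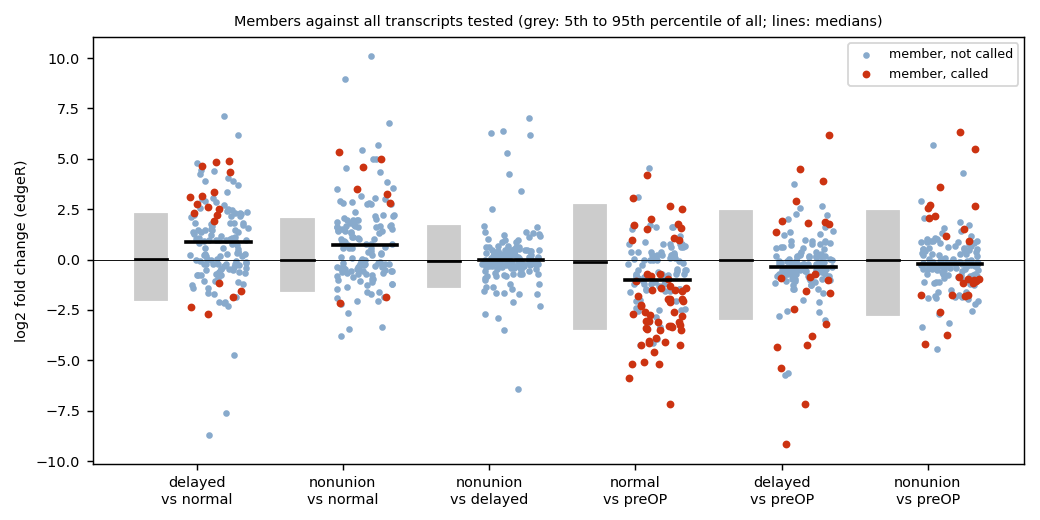
Log2 fold change from edgeR of each member tested (points, red where called at an adjusted p below 0.05) in the 6 comparisons, beside the range from the 5th to the 95th percentile of all transcripts tested (grey) and the medians (lines). The members' median lies at 0.88 for delayed against normal and at -1 for normal against preOP, while the medians of all transcripts lie between -0.1 and 0.02.

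Among the lncRNAs with an established name, Miat and Tincr were higher in delayed than in normal. Miat, a transcript first linked to myocardial infarction, stood at 0.301, 0.429 and 0.135 CPM in normal, 4.51, 6.23 and 14.5 in delayed, 1.94, 5.69 and 2.77 in nonunion and 3.36, 1.98 and 1.85 in preOP. Every library outside the normal group was above the 3 normal libraries. The log2 fold change was 4.87 (SE 0.76, adjusted p = 0.013) in delayed and 3.5 (SE 0.72, adjusted p = 0.048) in nonunion. Leaving out normal 1 or normal 3 ended the call in delayed (adjusted p up to 0.057), and leaving out any 1 of the 6 libraries ended that in nonunion (up to 0.17). Tincr, known from terminal differentiation of epidermis, stood at 1.91, 4.53 and 1.71 CPM in normal and at 13.9, 11.3 and 11.8 in delayed, with 8.51, 8.45 and 9.1 in nonunion. The normal libraries were again the lowest, with a log2 fold change of 2.2 (SE 0.42, adjusted p = 0.025) in delayed that was not called without delayed 1, delayed 3, normal 1 or normal 3 (up to 0.089).

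Pincl, Lnc012 and the unnamed NR_126573 were called higher than normal in both delayed and nonunion. Pincl stood at 2.06, 2.88 and 2.48 CPM in normal, 14.9, 16.9 and 13.4 in delayed, 10.9, 29.4 and 15.1 in nonunion and 21.4, 20.5 and 22.4 in preOP. The groups other than normal were all several times above it, with log2 fold changes of 2.6 (SE 0.41, adjusted p = 0.014) in delayed and 2.82 (SE 0.41, adjusted p = 0.018) in nonunion. The delayed call was lost without normal 1 or normal 3 (up to 0.059), and the nonunion call without nonunion 3 or any 1 normal library (up to 0.087). The other 6 Pincl rows held next to no reads.

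Lnc012, a transcript of 12402 bases that overlaps Cplx2 on the opposite strand in the annotation, stood at 3.71, 4.65 and 2.43 CPM in normal and 18.9, 40.6 and 13.8 in delayed. In nonunion it had 14.8, 59.9 and 31.8 CPM, and in preOP 61.4, 52.2 and 88.6. Normal was lowest and preOP highest on average, while delayed and nonunion overlapped each other. Its log2 fold changes were 2.74 (SE 0.58, adjusted p = 0.032) in delayed and 3.23 (SE 0.59, adjusted p = 0.035) in nonunion. Any 1 of the 6 libraries decided the delayed call (up to 0.12), and nonunion 2, nonunion 3 or any 1 normal library the nonunion call (up to 0.14). The coding neighbour Cplx2, a regulator of vesicle release, was not called, with log2 fold changes of -0.41 (SE 1.07) and -0.37 (SE 1.09).

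NR_126573 was near the floor in normal, at 0.15, 0.122 and 0.0451 CPM, and reached 1.45, 2.37 and 2.86 in delayed and 2.38, 4 and 2.11 in nonunion. Its log2 fold changes were 4.33 (SE 0.65, adjusted p = 0.012) and 4.6 (SE 0.65, adjusted p = 0.016). The first was lost without normal 3 (0.052), the second without nonunion 1, nonunion 3 or any 1 normal library (up to 0.083). Tox3l1 had 1 read in all of normal, 48 in delayed and 43 in nonunion, which are ratios of 39.9 (95% exact binomial interval 6.82 to 1610) and 44.9 (7.65 to 1820). These intervals cover counting error only. The adjusted p of 0.035 in delayed was lost without delayed 1, delayed 3 or any 1 normal library (up to 0.12), and that of 0.044 in nonunion without any 1 of the 6 libraries (up to 0.16).

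Of the other members called higher in delayed, LOC102550394 stood at 0.201, 0 and 0.0451 CPM in normal and 2.72, 3.04 and 1.25 in delayed, and LOC102554317 at 0.15, 0.245 and 0.405 against 5.62, 1.03 and 1.61. Their log2 fold changes were 4.66 (SE 1.1, adjusted p = 0.043) and 3.33 (SE 0.81, adjusted p = 0.047). RT1-T24-2, a non-coding member of the rat major histocompatibility complex, had 2.06, 1.59 and 1.04 CPM in normal and 7.5, 12.9 and 7.05 in delayed, a log2 fold change of 2.52 (SE 0.55, adjusted p = 0.034). Its gene lies inside RT1-T24-3 and RT1-T24-4 on the opposite strand, and reads that these genes share were divided among them by the authors' estimate. The pseudogene Aoc2-ps1 was at 1.05, 1.35 and 0.991 CPM in normal and 5.05, 6.79 and 5.19 in delayed (2.31, SE 0.45, adjusted p = 0.026). RT1-T24-2 and LOC102550394 lost the call without any 1 of the 6 libraries (up to 0.12 and 0.15), and LOC102554317 and Aoc2-ps1 without delayed 1, delayed 3 or any 1 normal library (up to 0.14 and 0.1). In nonunion against normal, LOC103692944 was called, at 0.15, 0.306 and 0.315 CPM in normal and 3.05, 21.1 and 2.69 in nonunion (4.99, SE 0.94, adjusted p = 0.038). Without nonunion 1, nonunion 3 or any 1 normal library it was not (up to 0.14).

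Lnc215 and Meg3 were low in both normal hematoma and preOP femur. Lnc215, which spans the hairpin genes Mir100, Mirlet7a-2 and Mir125b1, stood at 5.97, 14.1 and 10.8 CPM in normal, 30.8, 35.5 and 48.2 in delayed, 30.9, 24.9 and 41.2 in nonunion and 5.09, 5.95 and 4.51 in preOP. Delayed and nonunion lay wholly above both other groups. The log2 fold change was 1.9 (SE 0.37, adjusted p = 0.026) in delayed against normal, lost without delayed 1, delayed 3, normal 1 or normal 3 (up to 0.086). Against preOP it was 2.88 (SE 0.36, adjusted p = 0.00045) in delayed and 2.64 (SE 0.35, adjusted p = 0.00068) in nonunion, and both held in every alternative. Normal was also called above preOP, by 0.99 (SE 0.34, adjusted p = 0.038), but not without normal 2, normal 3 or any 1 preOP library (up to 0.13). The rows of Mirlet7a-2 and Mir125b1 held 0 reads in all 12 libraries, and Mir100 had reads in 2. The member Vof16, whose gene lies inside Lnc215 on the same strand, went the other way in normal against preOP. Vof16 fell there by 1.43, which held in every alternative, and was called in no other comparison with edgeR.

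Meg3, the maternally expressed lncRNA of the Dlk1 to Dio3 imprinted region, stood at 7.88, 23.3 and 10 CPM in normal, 34.8, 114 and 151 in delayed, 32.3, 28.9 and 100 in nonunion and 2.27, 5.34 and 5.75 in preOP. The order was preOP, normal, then delayed and nonunion, and no library of preOP reached a hematoma library. Against preOP the log2 fold change was 4.49 (SE 0.76, adjusted p = 0.002) in delayed and 3.6 (SE 0.73, adjusted p = 0.0052) in nonunion, and both held in every alternative. Normal differed from preOP by 1.62 (SE 0.68, adjusted p = 0.078) and delayed from normal by 2.88 (SE 0.72, adjusted p = 0.05), neither of which was called. Dlk1, a coding gene of the same imprinted region, was at 0.307 to 20.4 CPM in the hematomas and 0.618 to 1.8 CPM in preOP and was not called in any comparison. Fibroblast markers were also higher in every hematoma than in preOP, and their part in the Meg3 difference was not tested.

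**Figure D3:**
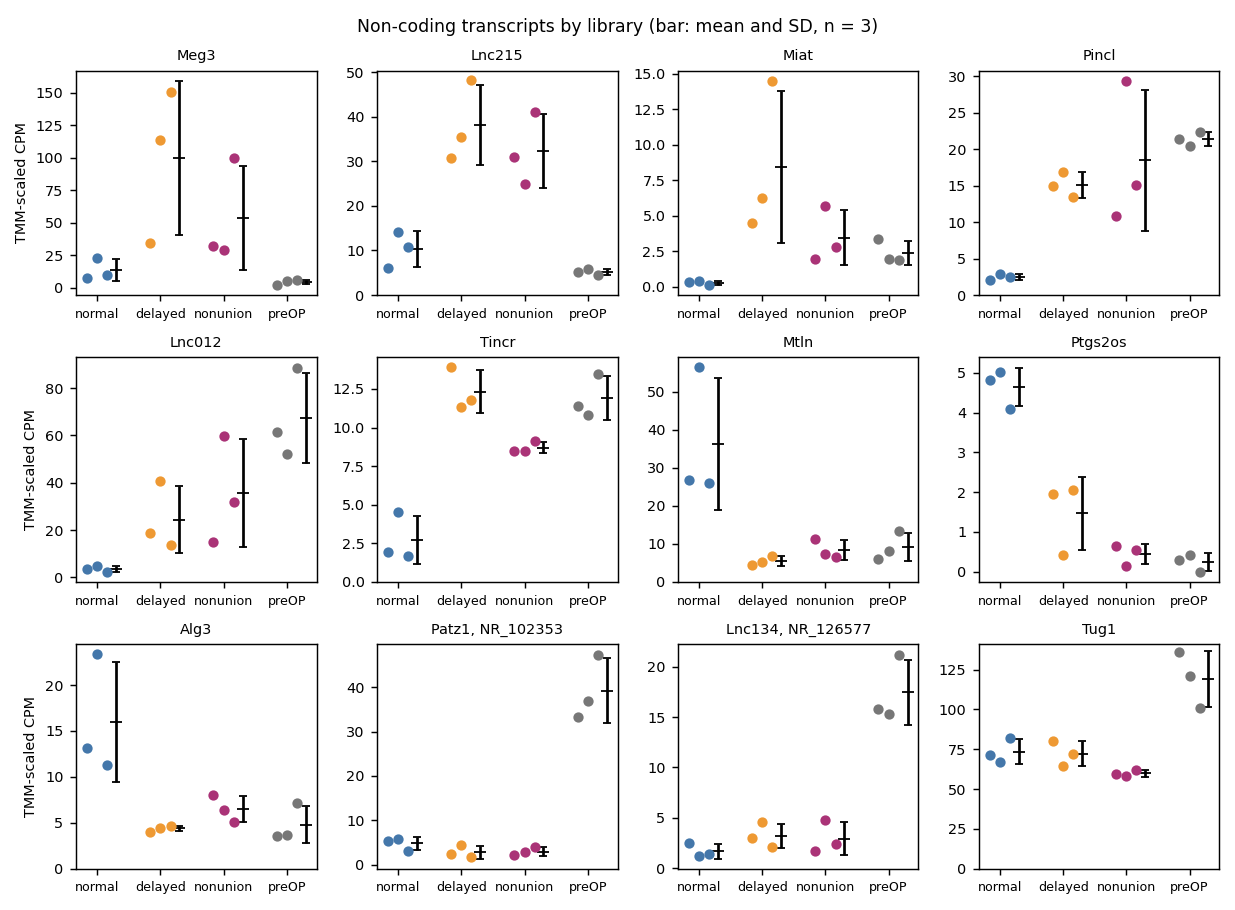
TMM-scaled CPM of 12 members on linear axes, with 1 point per library, 3 libraries per group, and the mean and SD beside them. Meg3 and Lnc215 are high in delayed and nonunion, and Miat, Pincl, Lnc012 and Tincr are low in normal. Mtln, Ptgs2os and Alg3 are high in normal, and Patz1 NR_102353, Lnc134 NR_126577 and Tug1 are high in preOP.

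Members that were lower in delayed than in normal included a transcript for a mitochondrial microprotein and variants of 3 coding genes. Mtln, entered as non-coding but known for the microprotein mitoregulin of the inner mitochondrial membrane, stood at 26.7, 56.4 and 26 CPM in normal, 4.48, 5.15 and 6.88 in delayed, 11.3, 7.22 and 6.54 in nonunion and 6.12, 8.03 and 13.4 in preOP. The normal libraries were all above the other 9. Mtln fell by 2.71 on the log2 scale in delayed (SE 0.41, adjusted p = 0.012) and by 2.16 in nonunion (SE 0.4, adjusted p = 0.036). The delayed call was lost without delayed 1 (0.057), and the nonunion call without any 1 of the 6 libraries (up to 0.11). NR_002597, which has no symbol, was at 20, 19.5 and 25.9 CPM in normal, 9.1, 5.15 and 7.97 in delayed and 6.14, 5.53 and 6.91 in nonunion. It fell by 1.56 (SE 0.34, adjusted p = 0.034) and 1.88 (SE 0.34, adjusted p = 0.035), each lost without any 1 of the 6 libraries (up to 0.12 and 0.14).

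For Dnlz, Alg3 and Szrd1 the coding row of the same gene allows a comparison within the gene. The non-coding Dnlz variant, from a gene for a mitochondrial zinc finger protein that assists the chaperone mortalin, had 10.7, 17.1 and 10 CPM in normal and 1.87, 2.47 and 3.02 in delayed. It fell by 2.35 (SE 0.47, adjusted p = 0.027), while the coding row differed by -1.43 (SE 0.39, adjusted p = 0.061). The variant of Alg3, a mannosyltransferase of N-glycan assembly, had 13.1, 23.4 and 11.3 CPM in normal and 4.05, 4.48 and 4.63 in delayed and fell by 1.85 (SE 0.37, adjusted p = 0.027), and its coding row differed by -0.53 (SE 0.36, adjusted p = 0.38). The Szrd1 variant had 78.4, 108 and 95 CPM in normal and 42, 34.8 and 49 in delayed and fell by 1.16 (SE 0.27, adjusted p = 0.04), and its coding row differed by 0.68 (SE 0.31, adjusted p = 0.21). The difference between variant and coding row was not tested. Each of the 3 calls was lost without any 1 of the 6 libraries (up to 0.1 for Dnlz, 0.098 for Alg3 and 0.12 for Szrd1). Reads that 2 variants of a gene share are divided between them by the authors' estimate.

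No member was called between nonunion and delayed with edgeR. Of 146 members tested, 0 were called, and 0% of all transcripts were. At an unadjusted p below 0.05 there were 12 members and 882 transcripts, and DESeq2 called 1 member. Libraries did not overlap for 4 members that were higher in nonunion and 7 that were lower, beside 5.66% and 3.3% of all transcripts, or 11 in either direction beside 8.97%. The 7 included Tincr and 3 miRNA hairpins, with Mir3120 at 0.99, 1.23 and 0.827 CPM in nonunion and 2.95, 1.49 and 5.07 in delayed (-1.73, SE 0.56, adjusted p = 0.61).

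Against preOP femur, most members called in normal hematoma were lower than in bone. In normal, 60 of 154 members were called, 12 higher and 48 lower, which is 39.0% of the members beside 40.8% of all 13487 transcripts (19.6% higher and 21.1% lower). In delayed, 23 members were called (14.9%), 9 higher and 14 lower, beside 26.4% of all transcripts. In nonunion, 25 were called (16.2%), 11 higher and 14 lower, beside 26.6%. These counts include Terc and C7h12orf54 in normal and delayed, and Mir3072 in delayed and nonunion. These members reached the read minimum only in groups where they were high, so their calls describe how they were selected. Libraries did not overlap for 23 members higher and 79 lower in normal, beside 29.7% and 36.1% of all transcripts, or 102 in either direction beside 65.8%. These counts were 18 and 53 in delayed, beside 21.4% and 29.8%, or 71 beside 51.1%. In nonunion they were 14 and 41, beside 20.4% and 27.7%, or 55 beside 48.2%. The median log2 fold change of the members was -1 in normal, -0.36 in delayed and -0.23 in nonunion, against -0.1, -0.04 and 0 over all transcripts. The 3 comparisons share the preOP libraries. When each library was left out in turn, 40 of the 60 calls in normal, 7 of the 23 in delayed and 7 of the 25 in nonunion held every time. Terc is among the 7 in delayed. The count in delayed fell to 10 without delayed 3, preOP 1 or preOP 3 and 11 without preOP 2. That in nonunion fell to 7 without preOP 3, 10 without preOP 1, 11 without nonunion 3 and 12 without preOP 2.

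**Figure D4:**
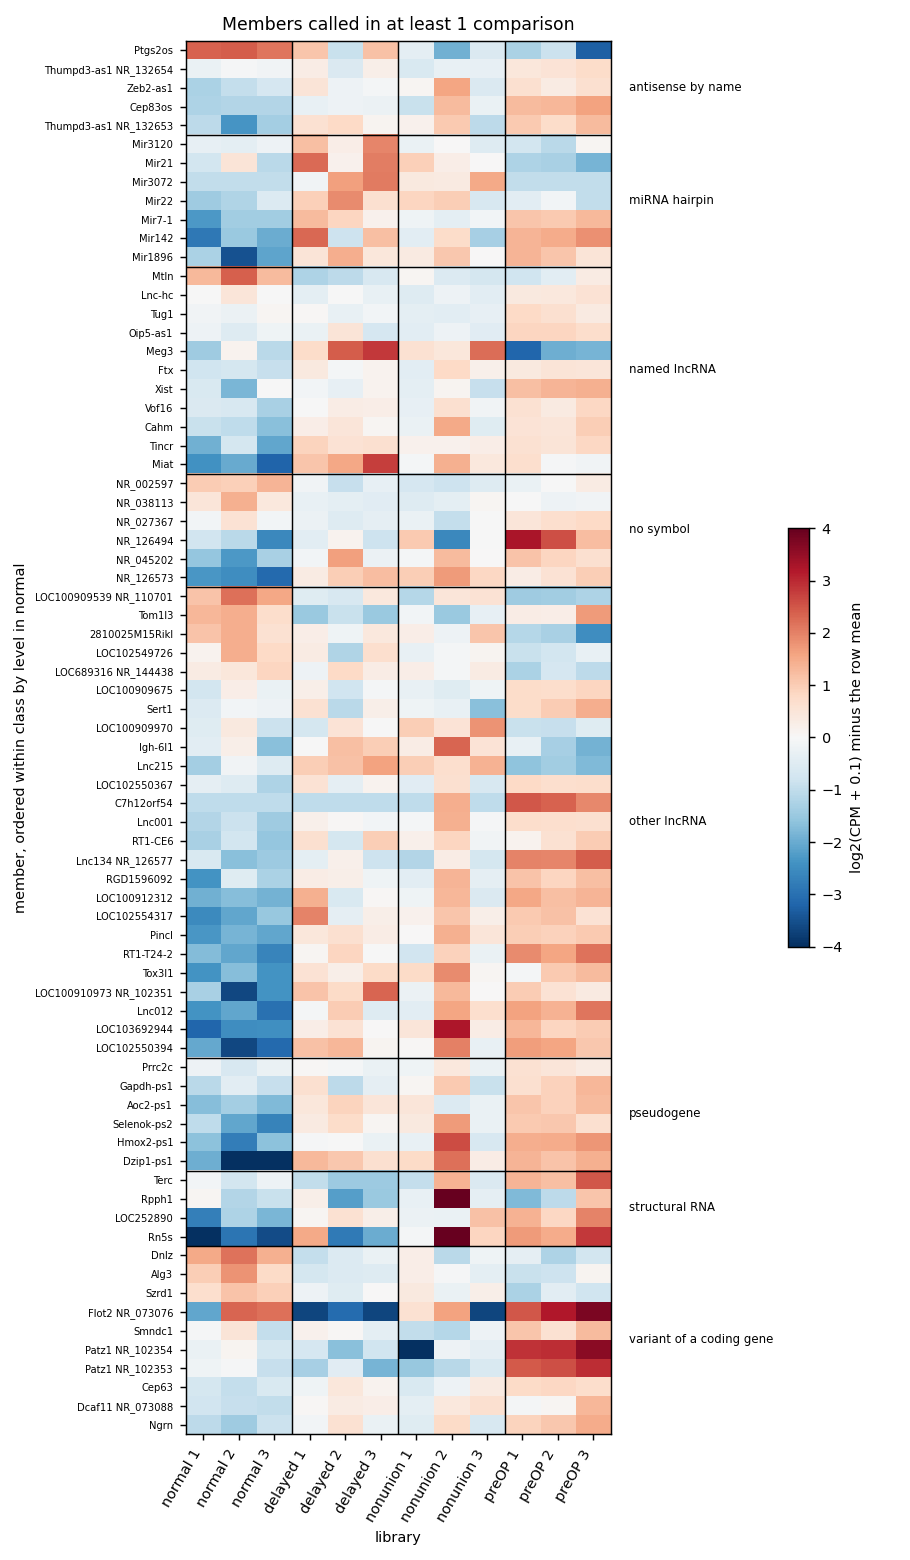
Log2 of CPM plus 0.1, centred on each row's mean, for the 74 members called in at least 1 comparison, in the 12 libraries. Rows are ordered by class and, within it, by their level in normal. Many rows of the lncRNA and pseudogene classes are blue in the 3 normal libraries, and 83 members were called in no comparison.

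Variants of Patz1 were far lower in all hematomas than in preOP. Patz1 encodes a zinc finger transcription factor with a BTB domain. Its non-coding row NR_102353 stood at 5.42, 5.82 and 3.15 CPM in normal, 2.37, 4.43 and 1.61 in delayed, 2.06, 2.77 and 3.93 in nonunion and 33.4, 37 and 47.4 in preOP. No hematoma library came near a preOP library. It fell by 3.03 (SE 0.44, adjusted p = 0.00058) in normal, 3.81 (SE 0.45, adjusted p = 0.00038) in delayed and 3.74 (SE 0.46, adjusted p = 0.00044) in nonunion, and all 3 held in every alternative. NR_102354 of the same gene fell by 3.49, 4.25 and 4.17, with adjusted p of 0.019, 0.013 and 0.015. Its calls were lost without normal 1, normal 3 or preOP 3 in normal (up to 0.069), delayed 3 in delayed (0.052) and preOP 3 in nonunion (0.05). Of 3 coding rows of the gene, 2 were also called in each comparison, and NM_001277214 fell by 2.92, 3.8 and 3.54 (adjusted p = 0.0037, 0.0018 and 0.0026), and Limk2, which overlaps on the opposite strand, was not called.

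Lnc134, whose nearest coding gene is Klhl12 on the opposite strand, was also low in every hematoma through its row NR_126577. Its other row, NR_126578, was called in no comparison with edgeR. Its row NR_126577 had 2.51, 1.16 and 1.35 CPM in normal, 2.95, 4.53 and 2.13 in delayed, 1.66, 4.76 and 2.36 in nonunion and 15.8, 15.3 and 21.2 in preOP. It fell by 3.38 (SE 0.51, adjusted p = 0.00076) in normal, 2.45 (SE 0.49, adjusted p = 0.0049) in delayed and 2.6 (SE 0.5, adjusted p = 0.004) in nonunion, and all 3 held in every alternative. Klhl12, an adaptor of the cullin 3 ubiquitin ligase, stood at 1.47 to 23.1 CPM in the hematomas and 40.5 to 54.5 CPM in preOP. Its coding row fell by 3.8 (adjusted p = 0.00076), 1.84 (adjusted p = 0.026) and 2.32 (adjusted p = 0.01).

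The abundant lncRNAs Oip5-as1 and Tug1 were lower in the hematomas by smaller factors. Oip5-as1, also known as Cyrano and known for a conserved site for miR-7, stood at 131, 105 and 135 CPM in normal, 125, 217 and 94.4 in delayed, 112, 131 and 110 in nonunion and 273, 275 and 244 in preOP. All 9 hematoma libraries were below preOP. It fell by 1.09 (SE 0.29, adjusted p = 0.012) in normal and 1.17 (SE 0.29, adjusted p = 0.013) in nonunion, which held in every alternative, and by 0.86 (SE 0.29, adjusted p = 0.047) in delayed. The call in delayed was lost without delayed 1, delayed 3 or any 1 preOP library (up to 0.18). Its coding neighbour Oip5, a centromere protein, fell by 2.08, 2.39 and 2.35 (adjusted p = 0.00048, 0.00043 and 0.00048). Tug1 was at 71.3, 66.8 and 82.2 CPM in normal, 80.4, 64.2 and 72.3 in delayed, 59.4, 58.1 and 62 in nonunion and 136, 121 and 101 in preOP. It fell by 0.7 (SE 0.19, adjusted p = 0.012), 0.72 (SE 0.19, adjusted p = 0.016) and 0.99 (SE 0.19, adjusted p = 0.0035). Leaving out preOP 1 or preOP 2 ended the call in normal (up to 0.14), and leaving out these, delayed 2 or delayed 3 ended that in delayed (up to 0.23).

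RT1-T24-2, at 26.5, 21.3 and 32.6 CPM in preOP, was called lower in each hematoma group. It fell by 4.1 (SE 0.52, adjusted p = 0.0003) in normal, 1.55 (SE 0.46, adjusted p = 0.03) in delayed and 1.8 (SE 0.47, adjusted p = 0.016) in nonunion. Delayed 1, delayed 3 or any 1 preOP library decided the call in delayed (up to 0.11), and nonunion 3 or preOP 3 that in nonunion (up to 0.062). The unnamed locus 2810025M15Rikl was higher in each hematoma group, with 16.5, 20.6 and 11.5 CPM in normal, 9.06, 6.59 and 10.1 in delayed, 9.03, 6.45 and 16.2 in nonunion and 3.36, 2.98 and 1.24 in preOP. Its log2 fold changes were 2.68 (SE 0.48, adjusted p = 0.0017), 1.76 (SE 0.46, adjusted p = 0.017) and 2.06 (SE 0.47, adjusted p = 0.0087), and the call in delayed was lost without preOP 3 (0.062).

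Among the antisense transcripts, Ptgs2os was high in normal and Cep83os in preOP. Ptgs2os lies next to Ptgs2, the gene of cyclooxygenase-2, on the opposite strand. It had 4.82, 5.02 and 4.1 CPM in normal, 1.95, 0.412 and 2.05 in delayed, 0.634, 0.154 and 0.538 in nonunion and 0.296, 0.425 and 0 in preOP. All normal libraries were above all others, and normal exceeded preOP by 4.2 (SE 0.95, adjusted p = 0.0056), a call that held in every alternative. Nonunion differed from normal by -3.34 (SE 0.74, adjusted p = 0.058) and delayed by -1.64 (SE 0.68, adjusted p = 0.18). Ptgs2 itself ran from 0.306 to 10.2 CPM in normal and 7.16 to 72.3 CPM in delayed and was called in no comparison.

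Cep83os had 2.46, 2.57 and 2.57 CPM in normal, 4.74, 5.1 and 4.99 in delayed, 3.13, 14.1 and 4.84 in nonunion and 14.1, 14.7 and 17.9 in preOP. It fell by 2.62 against preOP in normal (SE 0.5, adjusted p = 0.0024) and by 1.65 in delayed (SE 0.48, adjusted p = 0.026), the latter lost without any 1 of the 6 libraries (up to 0.089). Its coding neighbour Cep83, a centriole protein, differed by -0.69 (SE 0.26, adjusted p = 0.054) and -0.65 (SE 0.26, adjusted p = 0.091). Of the 9 antisense transcripts, 5 were called in normal against preOP, 1 higher and 4 lower, beside 40.8% of all transcripts (19.6% and 21.1%). Counting was not stated to use strand, so reads of an antisense transcript cannot be told apart from those of a gene that overlaps it.

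Further lncRNAs were lower in normal hematoma than in preOP. Of 15 lncRNAs with an established name that were tested, 8 were lower and 1 higher, beside 21.1% and 19.6% of all transcripts, with a median of -1.09, beside -0.1. Xist, which coats the inactive X chromosome in females, was low throughout in these males, at 1.25, 0.49 and 1.94 CPM in normal and 4.69, 5.29 and 5.44 in preOP, and fell by 2.05 (SE 0.51, adjusted p = 0.0092). Ftx, a transcript near Xist, had 2.66, 2.82 and 2.43 CPM in normal and 6.12, 6.76 and 6.55 in preOP and fell by 1.3 (SE 0.36, adjusted p = 0.016), lost without normal 3, preOP 1 or preOP 2 (up to 0.072). Miat, Tincr, Pincl, NR_126573 and Lnc012 fell by 3.05, 2.13, 3.12, 4.06 and 4.23, with adjusted p of 0.0047, 0.0017, 0.00022, 0.00057 and 0.00051. Mtln was higher in normal than in preOP, by 1.99 (SE 0.42, adjusted p = 0.0041). These 7 calls, without Ftx, held in every alternative.

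Of the 9 pseudogenes, 6 were called lower in normal than in preOP, beside 21.1% of all transcripts, and the class median was -2.82, beside -0.1. Dzip1-ps1 had 0.351, 0 and 0 CPM in normal and 4.39, 3.83 and 4.64 in preOP, and Hmox2-ps1 had 14.4, 6.55 and 14.6 against 124, 126 and 155. Hmox2-ps1 fell by 3.5 (SE 0.77, adjusted p = 0.0049). In nonunion 2 it reached 274 CPM, against 29.1 and 36.9 in the other nonunion libraries. Reads of a pseudogene and its parent gene can be divided wrongly where the sequences are alike. LOC100909539, whose gene overlaps the snoRNA gene Snord123, was higher in normal than in preOP through its row NR_110701, at 30.8, 64 and 40.6 CPM against 5.09, 5.29 and 5.81, a log2 fold change of 3.06 (SE 0.49, adjusted p = 0.001).

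The miRNA hairpins held few reads, and most that were tested lay lower in normal than in delayed hematoma. Of 456 miRNA rows in the files, 259 held 0 reads in all 12 libraries, 197 had at least 1 read and 19 were members. Of 16 hairpins tested between delayed and normal, 2 were called higher, none was called lower and the libraries of 12 did not overlap with delayed higher, beside 2.24%, 3.86% and 16.1% of all transcripts, with a median log2 fold change of 2.23. At an unadjusted p below 0.05 there were 10 of the 16 hairpins, beside 3318 of all 13072 transcripts tested. In nonunion, 0 of 16 were called with edgeR, beside 2.07% of all transcripts, and 8 did not overlap with nonunion higher, beside 13.9%. Of the 16, 7 had an unadjusted p below 0.05, beside 2645 of all 13072 transcripts tested. In a library, 3 reads correspond to 0.123 to 0.178 CPM before TMM scaling.

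The 2 called hairpins were Mir7-1 and Mir1896. Mir7-1, a source of miR-7a-5p, had 0.0502, 0.184 and 0.18 CPM in normal, 1.68, 1.24 and 0.725 in delayed, 0.554, 0.461 and 0.579 in nonunion and 1.48, 1.42 and 1.73 in preOP. The groups did not overlap between normal and any other group. It rose by 3.08 in delayed (SE 0.65, adjusted p = 0.032), a call lost without any 1 of the 6 libraries (up to 0.11). The call was also lost with effective lengths as offsets, with a replicate block and without the low-count filter. Against preOP Mir7-1 fell by 3.43 in normal (SE 0.57, adjusted p = 0.0012), which held in every alternative. Its gene lies inside Hnrnpk, an RNA-binding protein gene on the same strand, whose coding row differed by -0.33 (SE 0.29, adjusted p = 0.5) and -0.16 (SE 0.24, adjusted p = 0.61). Mir1896 had 0.652, 0.0612 and 0.315 CPM in normal, 2.49, 4.89 and 2.38 in delayed and 4.49, 3.78 and 2.47 in preOP. It rose by 3.16 in delayed (SE 0.78, adjusted p = 0.049, up to 0.16 without any 1 library) and fell by 3.34 in normal against preOP (SE 0.7, adjusted p = 0.004). Its call in delayed against normal was also lost with a replicate block, without the low-count filter and with the 2 groups fitted alone.

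Mir21, the hairpin of a miRNA abundant in activated fibroblasts and macrophages, was lowest in preOP. It had 0.251, 0.735 and 0.18 CPM in normal, 2.72, 0.566 and 2.34 in delayed, 1.03, 0.615 and 0.496 in nonunion and 0.148, 0.142 and 0.0618 in preOP. All hematoma libraries were above all preOP libraries, and delayed overlapped normal. The log2 fold change against preOP was 3.91 in delayed (SE 0.81, adjusted p = 0.0056), which held in every alternative, and 2.54 in nonunion (SE 0.8, adjusted p = 0.038), which was lost without nonunion 1, nonunion 3 or any 1 preOP library (up to 0.13). Delayed differed from normal by 2.31 (SE 0.79, adjusted p = 0.11). Macrophage markers summed to 168 to 315 CPM in preOP and 758 to 1830 CPM in the hematomas, and fibroblast markers were also higher in every hematoma library. Their part in the Mir21 difference was not tested. Vmp1, an autophagy gene and the nearest coding gene on the same strand, rose against preOP by 1.94 in normal (SE 0.34, adjusted p = 0.0015), 2.1 in delayed (SE 0.34, adjusted p = 0.0015) and 1.35 in nonunion (SE 0.33, adjusted p = 0.013).

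Mir142 and Mir223, hairpins of blood cells, were high in preOP and varied widely between hematomas. Mir142 had 0.15, 0.551 and 0.36 CPM in normal, 8.87, 0.927 and 4.07 in delayed, 1.27, 2.92 and 0.62 in nonunion and 4.54, 5.01 and 6.37 in preOP. It fell by 3.9 in normal against preOP (SE 0.88, adjusted p = 0.0056), which held in every alternative, and delayed differed from normal by 3.72 (SE 0.98, adjusted p = 0.057). Mir223 had 1, 0.918 and 1.53 CPM in normal, 20, 0.875 and 4.19 in delayed, 3.17, 1.38 and 0.745 in nonunion and 7.16, 7.28 and 5.07 in preOP, and was called in no comparison. Delayed 1 was the highest library for both hairpins. Neutrophil markers summed to 8410 to 10300 CPM in preOP and 1380 to 8920 CPM in normal, while delayed had 55.7 to 815 CPM and nonunion 41.6 to 468 CPM, and their part in these values was not tested.

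Mir22, Mir3120 and Mir3072 were higher in delayed than in preOP. Mir22 had 1.95, 3.86 and 1.57 CPM in delayed and 0.691, 0.898 and 0.433 in preOP, a log2 fold change of 1.85 (SE 0.61, adjusted p = 0.044) that was lost without delayed 1, delayed 2 or any 1 preOP library (up to 0.15). Mir3120 had 0.691, 0.52 and 1.3 CPM in preOP and 1.92 (SE 0.54, adjusted p = 0.023) was its log2 fold change in delayed, lost without delayed 3, preOP 1 or preOP 2 (up to 0.085). Its host Dnm3, a dynamin gene on the same strand, had 7.83, 10.5 and 13.2 CPM in normal, 2.29, 2.16 and 2.38 in delayed, 2.22, 13.1 and 2.94 in nonunion and 0.889, 0.756 and 1.48 in preOP. Host and hairpin thus had their highest group mean in normal and in delayed respectively. Delayed differed from normal by -2.21 for Dnm3 (SE 0.67, adjusted p = 0.083) and by 1.71 for Mir3120 (SE 0.56, adjusted p = 0.1).

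Mir3072 had 30 reads in delayed, 16 in nonunion and 0 in normal and preOP. With a floor of 3 reads over a group, delayed was at least 8.3-fold higher than normal and at least 8.18-fold higher than preOP, and nonunion at least 5.57-fold and at least 5.49-fold higher. Mir3072 reached the read minimum only in delayed 2, delayed 3 and nonunion 3, so these differences are a description and no test is given. In the annotation Mir3072 lies on the chromosome of Meg3. Between the 2 genes are 57 miRNA genes, all with a row, of which 16 had any read, 111 reads in total, and 0 were members.

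**Figure D5:**
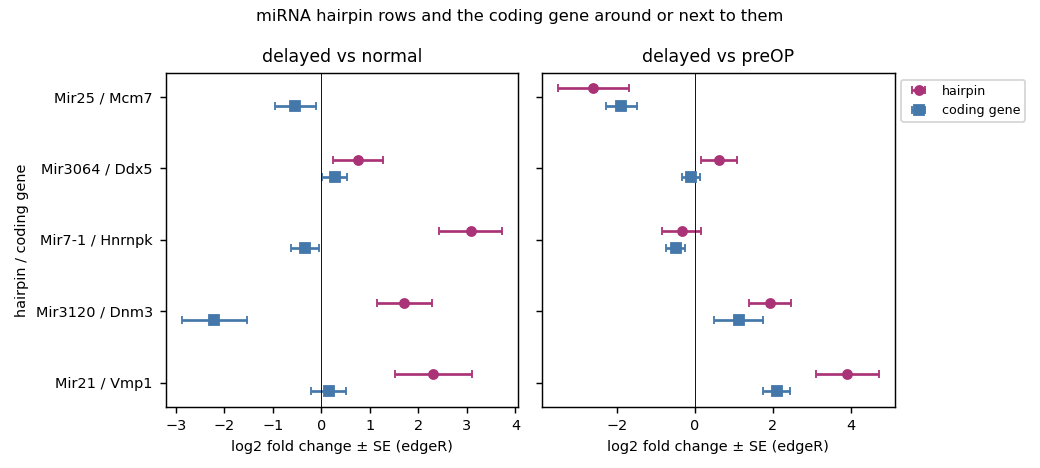
Log2 fold change from edgeR with its SE for 5 hairpins (circles) and the coding gene that contains them or lies nearest (squares), for delayed against normal and delayed against preOP. In delayed against normal, Mir7-1 lies at 3.08 with Hnrnpk at -0.33, and Mir3120 at 1.71 with Dnm3 at -2.21. Mir25 was too low for the fit of delayed against normal and has no point there.

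Some hairpins overlap a hairpin on the other strand, so their rows have nearly complementary sequences. The pair Mir3120 and Mir214 shows this, with the 106 overlapping bases in capitals, which are exact reverse complements of each other (RefSeq, GRCr8).
Mir3120: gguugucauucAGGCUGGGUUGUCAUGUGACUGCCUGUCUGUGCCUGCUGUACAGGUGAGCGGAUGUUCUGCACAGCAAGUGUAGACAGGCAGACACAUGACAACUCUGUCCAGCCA
Mir214: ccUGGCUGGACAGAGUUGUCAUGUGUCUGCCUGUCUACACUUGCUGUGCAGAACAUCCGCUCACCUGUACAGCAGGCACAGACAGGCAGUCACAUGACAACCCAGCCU
Mir3120 held 388 reads over 12 libraries, and Mir214 held 0 in all 12. In the same way Mir3074 held 169 reads and Mir24-1 0, with 68 overlapping bases, and Mirlet7d held 113 and Mir3596b 0, with 95. Mir3556b held 143 reads and its opposite Mir29c 0. Since strand use in counting is not given in the sources used here, the strand from which these reads came cannot be told apart, and the values of the 4 member hairpins may include transcripts of the opposite strand.

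None of the 3 listed snoRNA host genes was called in any comparison. Other members whose genes overlap snoRNA genes were counted with the 51 entries that fell in no other class. Of the members that overlap snoRNA genes, row NR_110701 of LOC100909539 and LOC102549726 were called higher in normal than in preOP, by 3.06 and 1.52. LOC100909675 was called lower than preOP in each hematoma group. LOC100912041 and LOC100911177 were not called. Among these calls, only that of NR_110701 held in every alternative. Gas5 stood at 153, 307 and 193 CPM in normal, 120, 107 and 159 in delayed, 108, 84.5 and 150 in nonunion and 134, 129 and 151 in preOP. Nonunion lay wholly below normal, with its highest library at 150 and the lowest normal library at 153, while delayed overlapped normal. The differences of delayed and nonunion from normal were -0.75 (SE 0.34, adjusted p = 0.21) and -0.98 (SE 0.34, adjusted p = 0.16). Of Gas5, Dancr and Snhg4, 0 were called in the 6 comparisons with edgeR, and 0 to 2 of the 3 had an unadjusted p below 0.05 in a comparison. The libraries did not overlap for 1 of them in delayed and 2 in nonunion against normal, all lower than normal. This was so for 20.3% and 15.3% of all transcripts.

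Several structural RNAs were far higher in nonunion 2 than elsewhere. The signal recognition particle RNA Rn7sl1 stood at 9420 CPM there and at 2.93 to 107 CPM in the other 11 libraries, and the ribosomal Rn5s at 2740 against 0.251 to 77.2 CPM. Rpph1, the RNA subunit of RNase P, was at 253 CPM there and 0.154 to 2.47 CPM elsewhere. It was called higher in nonunion than in preOP, by 6.33 (SE 2.06, adjusted p = 0.043), and without nonunion 2 the log2 fold change was -0.14 (adjusted p = 0.93). The call was also lost without any 1 preOP library. LOC252890, a structural RNA of 60 bases, had 0, 0.184 and 0.0901 CPM in normal and 1.68, 1.09 and 2.54 in preOP. It fell by 4.23 in normal (SE 0.87, adjusted p = 0.0036), which held in every alternative. Terc, the RNA template of telomerase, had 46 reads in preOP and 1 in delayed, a ratio of 56.2 (95% exact binomial interval 9.6 to 2270). It reached the read minimum only in the 3 preOP libraries, so this difference is a description of how it was selected.

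Other members were high in 1 library whose cell markers also stood apart. In delayed 2, the muscle hairpin Mir133b had 91 of its 93 delayed reads, the variant of the muscle gene Cox6a2 stood at 43.4 CPM against 0.191 to 15.1 elsewhere, NR_131134 at 47.8 against 0 to 6.49 and LOC102550325 at 28.1 against 0.0382 to 3.4. In nonunion 2, Tnxa-ps1 stood at 212 CPM against 1.1 to 24.8 elsewhere. Mir133b was not tested, and none of the other 4 was called in any comparison. In delayed 1, LOC106736471 stood at 70 CPM, against 0.615 to 28.7 CPM elsewhere.

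Of 33 variants of coding genes tested between delayed and normal, 0 were called higher and 3 lower, beside 2.24% and 3.86% of all transcripts. Their median was -0.24, and 11 had an unadjusted p below 0.05, beside 3318 of all 13072 transcripts tested. The Vegfa variant NR_105011, of the main angiogenic growth factor gene, had 0, 0.918 and 0 CPM in normal, 39.2, 32.5 and 45.5 in delayed, 14.9, 14 and 0 in nonunion and 3.95, 2.69 and 2.16 in preOP. Delayed was far above all other libraries, but the fitted change of 7.11 had an SE of 2 (adjusted p = 0.069) and was not called. Coding rows of Vegfa were called in the same comparison, with a rise of 3.62 for NM_001110335 (SE 0.71, adjusted p = 0.026) and 2.63 for NM_001110336 (SE 0.38, adjusted p = 0.011). Flot2 NR_073076, of a gene for a membrane scaffold protein, had 0.201, 6.31 and 5.77 CPM in normal, 0, 0.0515 and 0 in delayed and 7.06, 11.6 and 17.3 in preOP, or 668 reads in preOP against 1 in delayed, a ratio of 817 (95% exact binomial interval 146 to 32300, adjusted p = 0.0075). The Fam98c variant had 145 reads in normal and 0 in delayed, at least 58.2-fold lower in delayed, and was not called (adjusted p = 0.051). The Rps9 variant NR_132729 and the unnamed NR_132728, both of 926 bases, differed by at most 1 read in every library and were counted as separate rows in the files.

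C7h12orf54, a locus with no known role, had 52 reads in preOP, 0 in normal and delayed and 3 in nonunion, all in nonunion 2. PreOP was at least 17.6-fold higher than normal and at least 21.2-fold higher than delayed, and 16.8-fold higher than nonunion (95% exact binomial interval 5.45 to 84.3). It reached the read minimum only in the 3 preOP libraries, so these differences are a description and no test is given. Outside the read threshold, Mir144 and Mir451a, hairpins of red cell precursors, had 18, 15 and 7 and 17, 7 and 11 reads in preOP and 0 in the 9 hematoma libraries. Red cell markers were highest in preOP as well.

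Coding genes that make or bind such RNAs were examined as lists. Of 14 genes of miRNA biogenesis, 9 had a row, with 10 rows in all. None was called among the hematoma groups with edgeR. Of the 10 rows, 5, 3 and 4 were lower than preOP in normal, delayed and nonunion, with 0 higher. Over all transcripts, 21.1%, 14.6% and 14% were called lower in these comparisons, and 19.6%, 11.7% and 12.6% higher. Both rows of Ago1 were among the 5 in normal. They held nearly the same reads in every library, so this gene was counted more than once. Dgcr8, the partner of Drosha, fell by 1.73, 1.23 and 1.46 (adjusted p = 0.00019, 0.0014 and 0.00066), and Drosha was not called. Of 11 snoRNP genes, 10 had a row. Of these rows, 1 was lower in delayed and in nonunion than in normal, beside 3.86% and 1.29% of all transcripts. The other 9 were not called there. Against preOP, 3 were higher in normal, beside 19.6% of all transcripts. In delayed 1 was lower, beside 14.6%, and in nonunion 0 were called, beside 26.6%. The row called among the hematomas was Dkc1. Dkc1, the pseudouridine synthase of snoRNPs and telomerase, stood at 94.1, 191 and 79.5 CPM in normal and 11.7, 7.31 and 18.5 in delayed and fell by 3.25 (SE 0.46, adjusted p = 0.01). It also fell by 2.61 in nonunion (SE 0.44, adjusted p = 0.029).

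Of 9 rows of paraspeckle proteins, 0 were called among the hematomas and 1, 3 and 1 were lower than preOP in normal, delayed and nonunion. Of 11 rows of RNase P and MRP proteins, 2 were lower in delayed than in normal, Pop7 by 1.6 (SE 0.35, adjusted p = 0.035) and Rpp21 by 1.92 (SE 0.45, adjusted p = 0.042), beside 3.86% of all transcripts. None was called in nonunion against normal or delayed. Against preOP, 2 rows were higher and 0 lower in normal, and 1 was higher and 1 lower in each of delayed and nonunion. Over all transcripts, 26.4% to 40.8% were called in the comparisons with preOP, with 11.7% to 19.6% higher and 14% to 21.1% lower.

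Not every member could be tested. The filter on low counts removed 11 members from the fit of the 9 hematoma libraries (C7h12orf54, CB741658, Hrh3, Kantr, LOC100910189, Mir1249, Mir133b, Mir25, RGD1562890, Terc and Tom1l3) and 3 from the fit of all 12 (Kantr, Mir1249 and Mir133b). Of the 157 members, 74 were called in at least 1 comparison and 83 in none. Some members named here, among them Tincr, Aoc2-ps1, RT1-T24-2, Vegfa and those high in 1 library, were chosen after their values were seen.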

How the data were processed

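RNA was sequenced from 12 libraries, 3 in each of 4 groups taken from the labels. Per the submitters' processing notes, bcl2fastq 1.8.4, Trimmomatic, FastQC and Salmon were used, with rn6 as the build. The sources used here give neither the other versions nor the strand setting. Per the file headers, the deposited values are estimated counts per transcript, TPM and effective lengths in bases. Deposited TPM were used to compare levels between transcripts, and deposited effective lengths in 1 alternative.

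Estimated counts were rounded and tested per single transcript with edgeR 4.0.16 in R 4.3.3 (quasi-likelihood F-test, two-sided, TMM, filterByExpr by group), with 9 libraries for the hematoma comparisons and 12 for those with preOP. P-values were adjusted by Benjamini-Hochberg over all transcripts tested, and 0.05 was the threshold. SEs were derived from the F statistic, as |log2 fold change| over its square root. Unnamed errors are SD. Floors of 3 reads per group and 95% binomial intervals cover counting error only. Symbols and neighbours within 10 kb came from a RefSeq annotation of GRCr8, with no coordinates, and matched 659 of the 673 non-coding rows.

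The members and lists were chosen with earlier results of these data known. The rule for named members took, per comparison and direction, up to 6 called members whose groups did not overlap and whose higher group averaged 1 CPM or more, up to 4 abundant ones per class, their partners, those nearest the read threshold, and those absent from 1 group. The fits were tested on simulated data with planted changes of 2-, 4- and 8-fold. In the setting of delayed against normal, 0%, 5.71% and 45.2% of these were called. For normal against preOP, 5.45%, 38.5% and 74.6% were called, so many real changes can go uncalled. False calls made up 3.03% and 3.49% of the calls. These rates are for simulated data with 200 changes planted among all transcripts tested and were not measured for the members. Alternatives were DESeq2 size factors, DESeq2 1.42.0, no low-count filter, a replicate block, effective lengths as offsets, leaving out ribosomal RNA rows, leaving out libraries, and fitting 2 groups alone.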

Additional observations from a re-analysis of the deposited data

How the results depend on the processing

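With 3 libraries per group and few reads on most hairpins, a member that was not called is not shown to be alike between groups. Of 134 calls of members, 54 held in every alternative run and 80 were lost in at least 1. The 134 include the calls of Terc, C7h12orf54 and Mir3072 against preOP, which describe how these members were selected. In delayed against normal, 18 members were called, and 6 with a replicate block, 51 with DESeq2, 39 without delayed 2 and nonunion 2, and 1 (without normal 3) to 12 (without delayed 2) when 1 library was left out. In nonunion against normal, 8 were called, and 3 with a replicate block, 34 with DESeq2, 4 when the 2 groups were fitted alone and 0 (without nonunion 3, normal 1 or normal 3) to 3 (without nonunion 2) when 1 library was left out. In nonunion against delayed, 0 were called, and 1 with DESeq2. In delayed against preOP, 23 were called, and 10 (without delayed 3, preOP 1 or preOP 3) to 28 (without delayed 2) when 1 library was left out. In nonunion against preOP, 25 were called, and 7 (without preOP 3) to 24 (without nonunion 2). The cause of these shifts was not tested, beyond fewer libraries. In normal against preOP, 60 were called, and 44 to 83 under all alternatives. Rpph1 in nonunion against preOP reversed, to -0.13 without delayed 2 and nonunion 2 (adjusted p = 0.92), and ran from -0.14 (without nonunion 2) to 7.84 (without preOP 3) when 1 library was left out. The correlation of deviations between same-numbered libraries ran from -0.167 to 0.19. Libraries of different number were not compared, so whether the replicate numbers pair the samples cannot be told. With the block, 60, 17 and 18 members were called in normal, delayed and nonunion against preOP.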
